A study of Mus musculus with 6 samples.

Results

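Interferon-induced genes were followed in calf muscle of mice that overexpress integrin alpha7. The group held 9 named genes, Ifih1, Irf7, Ifit1, Ifit3, Rsad2, Ifi35, Isg15, Usp18 and Ly6e. Their probe sets, the groups of short oligonucleotides that measure a transcript on the array, were taken wherever the array's annotation gave exactly 1 gene symbol and that symbol was one of the 9. This gave 13 probe sets of 8 genes, of 45037 probe sets that were not controls and 18193 genes named by a single symbol. Isg15 was measured only by a probe set annotated with several symbols, so no value is given for it. The remaining genes had 1 probe set each, except Ly6e with 2 and Rsad2 and Ifi35 with 3 each.

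The study compared integrin alpha7 transgenic mice with wild type mice on Affymetrix Mouse430_2 arrays, with 3 arrays of each genotype. All animals were female, 5 weeks old, non-fasted and of a SJ6/C57BL6 background, and the tissue was gastrocnemius and soleus muscle in the basal state. Each array carried RNA combined in equal amounts from 6 animals, which makes 18 animals of each genotype, and variation from animal to animal is hidden inside the pools. The titles of the control arrays carry the word intronic, and neither its meaning nor the promoter that drives the transgene is given in the sources used here. Values are deposited signals on a linear scale, with array medians of 34.0 to 38.4.

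The labels held for the overexpressed gene, since Itga7 gave a signal of 2238 ± 228 (SD, n = 3) in transgenic and 292 ± 32.7 (SD, n = 3) in control muscle. All 12 skeletal muscle fibre markers examined, among them creatine kinase Ckm and the slow myosin Myh7, were above the filter on dim probe sets. That filter kept the 27022 probe sets with a mean past the 40th percentile, which was a signal near 21.7. All 13 interferon-induced probe sets passed it.

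Type I interferons are cytokines released when cells sense viral nucleic acid. They bind a receptor pair at the cell surface, and the kinases Jak1 and Tyk2 then relay the signal to a transcription factor complex that holds Irf9 and enters the nucleus. This complex binds interferon-stimulated response elements near the start of antiviral genes. Muscle fibres can mount this response, and it is well known in inflammatory muscle disease.

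The sequences through which these genes are known to be switched on were read from RefSeq's promoter table (build GRCm38.p6), which held 300 bases around the start of 7 of the 9 genes, from 250 before to 50 after the start site. The core of the interferon-stimulated response element, searched on both strands as GAAA, any 2 bases and GAAA, with overlapping matches counted, was found for 5 of the 7, namely Ifit1, Ifit3, Isg15, Rsad2 and Ifih1. Over all 32851 promoters of the table it was found in 3.44%. The stretches that hold it are shown on the strand of the gene because they mark out the members with the textbook element, with the matches in capitals.
Ifit1: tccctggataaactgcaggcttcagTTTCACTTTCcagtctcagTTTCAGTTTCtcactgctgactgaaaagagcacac
Ifit3: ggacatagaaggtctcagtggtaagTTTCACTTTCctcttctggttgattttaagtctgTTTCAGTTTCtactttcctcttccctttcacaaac
Isg15: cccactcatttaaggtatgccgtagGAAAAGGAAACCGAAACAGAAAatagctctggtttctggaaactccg
Rsad2: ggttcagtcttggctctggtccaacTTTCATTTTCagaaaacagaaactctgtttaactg
Ifih1: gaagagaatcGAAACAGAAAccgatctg

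The stretch of Ifit1 lies at chr19:34640760-34640838 on the plus strand and that of Ifit3 at chr19:34583348-34583441 on the plus strand. Those of Isg15, at chr4:156200850-156200921, of Rsad2, at chr12:26456538-26456597, and of Ifih1, at chr2:62646206-62646233, lie on the minus strand. Ifit1 and Ifit3, neighbouring genes of 1 family, each held 2 matches in the opposite orientation, and in each promoter the farther match had the same letters, as had the nearer one. These began 104 and 85 bases before the start site for Ifit1 and 156 and 122 bases before it for Ifit3. Isg15 held 3 overlapping matches from 78 bases before the start site on, and Rsad2 held 1 that began 120 bases before it. The match of Ifih1 lay 32 bases after the start site, within the transcript.

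No match was found for Irf7 or Ifi35, which says only that these letters are not in the windows searched. The core of the gamma-activated site, TTC, any 3 bases and GAA, known from genes induced by interferon gamma, was found in 8.3% of all promoters and for 1 of the 7 genes, Ifi35. The core of the response element was also found for 21 of 39 genes of a list of other antiviral effectors and for 0 of 5 interferon receptor genes. A match is a run of letters, and no binding was measured in this study.

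**Figure D1:**
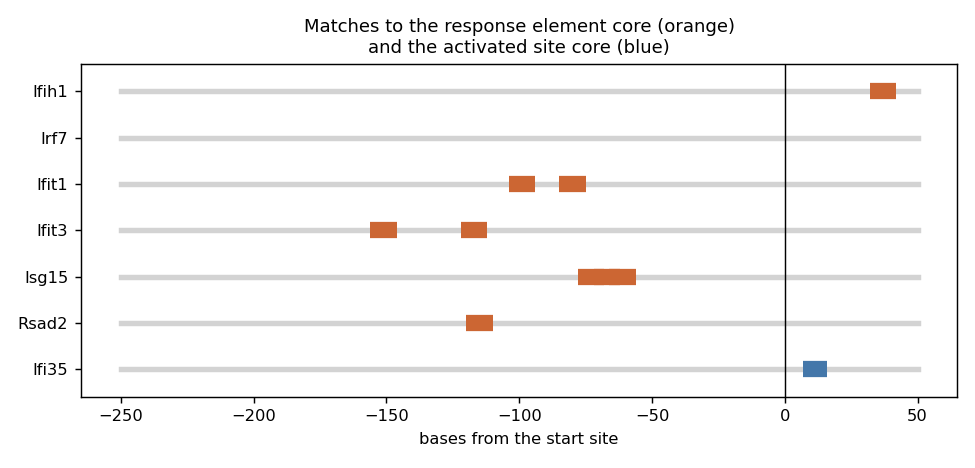
Positions of motif matches in the promoter windows of 7 genes, in bases from the start site, with the core of the interferon-stimulated response element in orange and that of the gamma-activated site in blue. Ifit1, Ifit3, Isg15 and Rsad2 held the response element core before the start site, Ifih1 after it, and Irf7 and Ifi35 did not hold it.

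Of the 13 probe sets, 1 passed as higher in transgenic muscle and 0 as lower, with limma's moderated test at a Benjamini-Hochberg adjusted p of 0.05 over all 27022 probe sets. Over all probe sets, 0.122% passed, 0.0999% as higher and 0.0222% as lower. The probe set that passed was one of Ly6e, and the other 7 measured genes had none. Before adjustment, 2 of the 13 had p under 0.05, both higher, against 7.85% of all probe sets. The difference was above 0 for 11 of the 13, with a median of 0.15 on the log2 scale, against 47.4% and a median of -0.012 over all probe sets. These genes were chosen with results of these data known and several probe sets share a transcript, so no test was made over the group.

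Ifih1 encodes MDA5, a cytosolic sensor of long double-stranded RNA. Its signal was 133, 141 and 116 in wild type and 139, 157 and 143 in transgenic pools. The lowest transgenic value lay below the highest wild type value, so the genotypes overlapped. The log2 difference was 0.16, with a 95% interval from -0.13 to 0.44, at adjusted p 0.813 in limma.

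Irf7, the transcription factor that amplifies interferon alpha production, gave 121, 106 and 144 in wild type and 112, 156 and 183 in transgenic pools. Transgenic replicates 2 and 3 lay above every wild type pool, and replicate 1 lay within the wild type range. The log2 difference was 0.24, with an interval from -0.15 to 0.63, at adjusted p 0.794 in limma. Its spread was larger in the transgenic group, with an SD of 0.33 on the log2 scale against 0.20.

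Ifit1, a protein that binds viral RNA lacking the host's cap methylation, gave 101, 94.6 and 98.1 in wild type and 85.6, 120 and 151 in transgenic pools. Transgenic replicate 1 was below all wild type pools and the others were above all of them. The SD on the log2 scale was 0.36 in the transgenic group and 0.041 in wild type, and the log2 difference of 0.21 had an interval from -0.18 to 0.60 and adjusted p 0.817 in limma. Ifit3, of the same family, gave 284, 247 and 298 in wild type and 272, 287 and 322 in transgenic pools. These overlapped, with a log2 difference of 0.085, an interval from -0.16 to 0.33 and adjusted p 0.896 in limma. Mouse Ifit3 has a near-identical neighbour, Ifit3b, so the share of each in this signal is uncertain.

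Rsad2, also called viperin, is an enzyme that makes a chain-terminating nucleotide and restrains many viruses, and its probe sets disagreed. The brightest gave 218, 208 and 171 in wild type and 202, 267 and 312 in transgenic pools. Here transgenic replicate 3 was highest and replicate 1 lay within the wild type range. The log2 difference was 0.35, with an interval from 0.011 to 0.69, an unadjusted p of 0.0439 and, adjusted in limma, 0.620, so it did not pass.

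The dimmer probe sets of Rsad2 ran the other way. The probe set 1421008_at gave 92.2, 98.8 and 68.4 in wild type and 59.2, 80.6 and 80.9 in transgenic pools, a log2 difference of -0.19 at adjusted p 0.840 in limma. The probe set 1421009_at gave 56.2, 56.1 and 68.8 in wild type and 41.4, 58.1 and 58.3 in transgenic pools, a log2 difference of -0.16 at adjusted p 0.882. In both, transgenic replicate 1 was below every other array and the remaining arrays overlapped. Within the transgenic group the 3 probe sets of Rsad2 thus had the same order of pools, with replicate 1 lowest and replicate 3 highest, although replicates 2 and 3 were nearly equal on the dimmer ones.

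**Figure D2:**
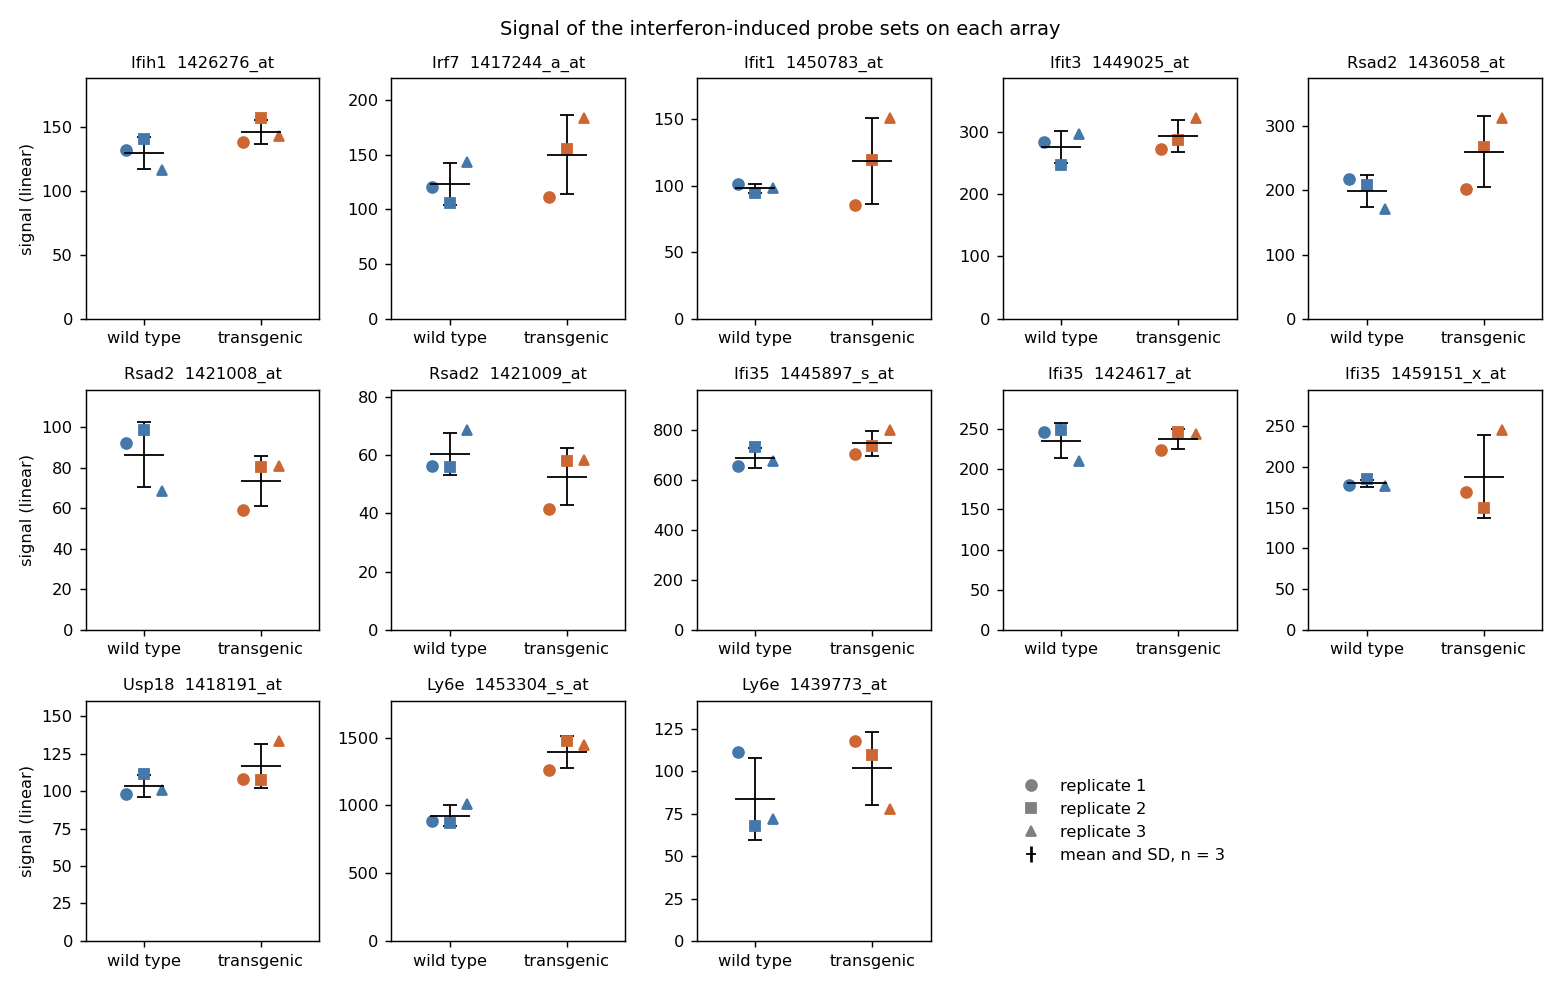
Deposited signal (linear, from 0) of the 13 probe sets on each of 6 arrays, with wild type in blue and transgenic in orange, symbols for the replicate numbers, and the mean and SD of 3 arrays in black. The genotypes are separate only for Ly6e on probe set 1453304_s_at, at 870.5 to 1012 in wild type and 1262 to 1476 in transgenic pools.

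Ifi35 is a leucine zipper protein that pairs with Nmi and is induced by both interferon types. Its brightest probe set, 1445897_s_at, gave 656, 732 and 674 in wild type and 703, 735 and 800.5 in transgenic pools, with a log2 difference of 0.12, an interval from -0.067 to 0.30 and adjusted p 0.789 in limma. The next, 1424617_at, gave 247, 249 and 210.3 in wild type and 224, 246 and 243 in transgenic pools, with a log2 difference of 0.015 at adjusted p 0.986. On the first, transgenic replicates 2 and 3 were above all wild type pools, and on the second every transgenic value lay within the wild type range. The third, 1459151_x_at, gave 177, 185 and 177 in wild type and 169, 149 and 246 in transgenic pools. Transgenic replicate 3 stood above all other arrays while the others were below wild type, and the log2 difference was 0.031, at adjusted p 0.980 in limma. The ending x_at marks probes that can also bind other sequences.

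Usp18 removes Isg15 from proteins and, at the receptor, limits further interferon signalling. It gave 97.8, 111 and 101 in wild type and 108, 108 and 134 in transgenic pools. Transgenic replicate 3 was above all wild type pools and the others were within their range. The log2 difference was 0.15, with an interval from -0.16 to 0.46, at adjusted p 0.844 in limma.

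Ly6e, a small lipid-anchored surface protein that blocks entry of coronaviruses and aids that of some other viruses, was the gene that rose. Its probe set 1453304_s_at gave 886, 870.5 and 1012 in wild type and 1262, 1476 and 1445 in transgenic pools. Every transgenic pool was above every wild type pool, where 5.85% of all probe sets showed such a separation upward and 7.5% downward. The means were 923 ± 77.7 (SD, n = 3) and 1395 ± 115 (SD, n = 3), and the log2 difference was 0.59, with an interval from 0.40 to 0.78, at adjusted p 0.0281 in limma. This is a 1.5-fold rise, which ranked 24 of 27022 by p. The difference was 0.63 within the 4 arrays of hybridisation round 1 and 0.51 between the 2 arrays of round 2.

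The second Ly6e probe set, 1439773_at, did not pass. It gave 111, 67.6 and 72.2 in wild type and 118, 109.7 and 77.6 in transgenic pools. Wild type replicate 1 lay between the upper transgenic pools, and transgenic replicate 3 lay near the lower wild type ones. The log2 difference was 0.25, with an interval of -0.19 to 0.69 that overlaps that of the brighter probe set, and the adjusted p was 0.810 in limma.

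The call of Ly6e depended on single pools. Its adjusted p in limma was 0.136 without wild type replicate 1, 0.197 without wild type replicate 2, 0.105 without transgenic replicate 2 and 0.0539 without transgenic replicate 3, while the log2 difference stayed between 0.54 and 0.66 over the left-out pools. The adjusted p was 0.417 without the intensity trend of the variances, 0.0679 when dim probe sets were kept and 0.0523 in hybridisation round 1 alone.

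**Figure D3:**
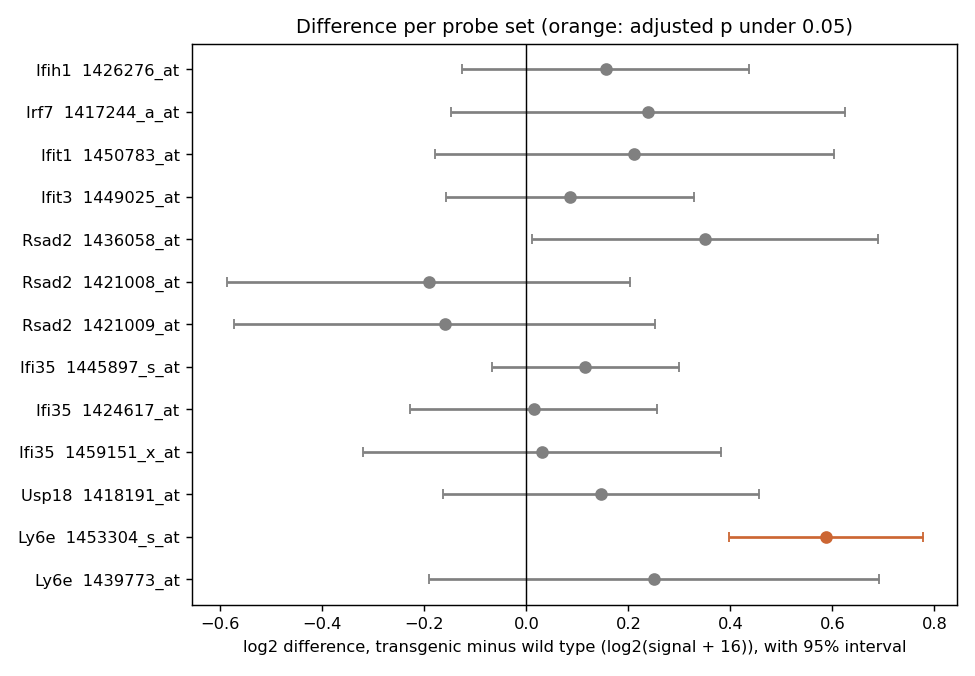
Log2 difference of each of the 13 probe sets, transgenic minus wild type on the log2(signal + 16) scale, with its 95% interval from limma, and the probe set past an adjusted p of 0.05 in orange. Ly6e on 1453304_s_at, at 0.59, has its interval of 0.40 to 0.78 clear of 0, Rsad2 on 1436058_at has 0.011 to 0.69, and the intervals of the other 11 include 0.

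The intervals show what 3 pools a genotype could tell apart. Their median half-width was 0.34 on the log2 scale for the 13 probe sets and 0.37 over all. For 6 of the 13 the whole interval lay within 0.5 log2 units of no difference, namely Ifih1, Ifit3, Usp18 and all 3 probe sets of Ifi35. For Irf7 and Ifit1 it reached up to 0.63 and 0.60, so the interval still includes a rise of that size.

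The transgenic pools differed among themselves. Transgenic replicate 1 was the lowest of the transgenic arrays for 10 of the 13 probe sets, against 31.9% of all probe sets, and transgenic replicate 3 was the highest for 9 of the 13, against 35.4%. The median deviation from the wild type mean over the 13 was -0.016 on transgenic replicate 1, 0.097 on replicate 2 and 0.22 on replicate 3, while it was -0.0083, 0.0079 and -0.012 over all probe sets. The wild type arrays stood at 0.030, 0.038 and -0.026. Irf7, Ifit1 and the brightest probe set of Rsad2 were all highest in transgenic replicate 3 and within or below the wild type range in replicate 1. The SD on the log2 scale was larger in the transgenic group for 8 of the 13 and for 53.0% of all probe sets.

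Ly6e had another order. Its 1453304_s_at signal was highest in transgenic replicate 2 and its 1439773_at signal in replicate 1.

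Hybridisation round, inferred from a gap in the arrays' time stamps, moved with part of this order, since replicate 3 of each genotype was in round 2. The difference was larger in round 2 than in round 1 for 10 of the 13, against 49.6% of all probe sets, with medians of 0.27 and 0.052, where all probe sets had -0.015 and -0.0097. It was 0.81 and 0.12 for the brightest probe set of Rsad2 and 0.55 and 0.045 for Ifit1. Round 2 held 1 array of each genotype, so it has no spread of its own, and the part of the round in these values was not tested. Without transgenic replicate 3 the median over the 13 was 0.057.

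**Figure D4:**
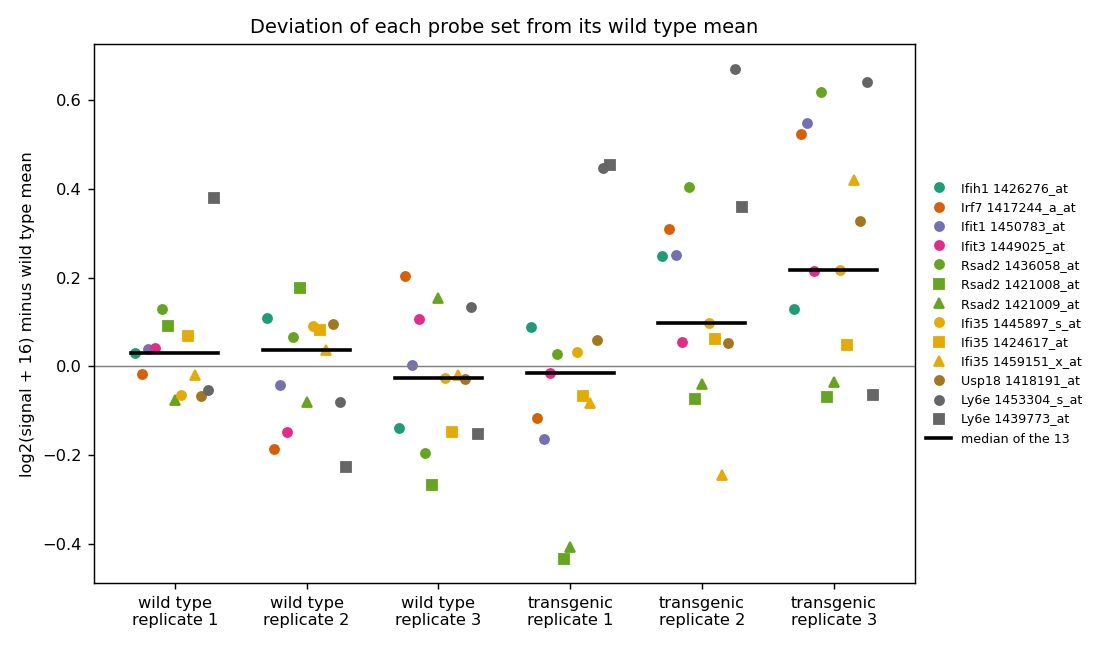
Deviation of each of the 13 probe sets from its wild type mean on the log2(signal + 16) scale, for each of 6 arrays, with a colour for each gene and the median of the 13 as a black bar. The median is -0.016 on transgenic replicate 1, 0.097 on replicate 2 and 0.22 on replicate 3, and between -0.026 and 0.038 on the wild type arrays.

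Of 144 other genes listed by their role in the pathway, 92 had a probe set with 1 symbol above the filter, with 151 probe sets. Of these probe sets 2 passed in limma, both of Mndal and both as higher, and 0 as lower. Before adjustment, p was under 0.05 for 11 higher and 5 lower ones of the 151, against 7.85% of all probe sets. By the brightest probe set of each gene, 56 of 92 genes had positive differences, with a median log2 difference of 0.031, against 47.9% and -0.0083 over 12942 named genes. The arrays did not overlap for 9 genes that were higher and 8 that were lower, where 6.44% and 7.94% of named genes did so. Of the higher ones, Ly6i and Ifi213 had wild type means of 18.8 and 21.6, below the filter's level. Of the lower ones, Socs1 had a transgenic mean of 19.4, also below that level, and was kept only through its wild type signal.

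The interferons themselves were dim. Of 9 ligand genes with a probe set, 8 were below the filter, and Ifnb1, the beta interferon, gave 53.4, 5.66 and 48.1 in wild type and 19.5, 37.0 and 35.0 in transgenic pools, with no separation. Of 5 receptor genes above the filter none passed in limma. Of their 10 probe sets 1, of Il10rb, reached an unadjusted p under 0.05, against 7.85% of all. Il10rb, a chain shared with the lambda interferon and interleukin receptors, gave 298 in wild type muscle against 249, a log2 difference of -0.24 at adjusted p 0.599. Ifnar2, the signalling chain of the type I receptor, gave 247 and 209, a log2 difference of -0.22 at adjusted p 0.673. Both had every transgenic array below every wild type array, as had 7.94% of named genes.

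In the relay from the receptor to the nucleus, none of 11 genes passed in limma. Of 27 probe sets, 3 had an unadjusted p under 0.05, against 7.85% of all. That of Stat2, with a wild type mean of 18.1, was above the filter only through its transgenic signal. Socs3, an inhibitor of cytokine signalling, gave 156 and 209 on its brightest probe set, a log2 difference of 0.41 at adjusted p 0.532. Tyk2, a receptor kinase, gave 110 and 134 on its brighter probe set, a log2 difference of 0.25 at adjusted p 0.681. The dimmer one of Tyk2 gave -0.20. Of the other interferon regulatory factors, 6 genes, none passed and none reached an unadjusted p under 0.05. Irf8 gave a log2 difference of 0.20 and Irf2 of 0.33, with adjusted p of 0.756 and 0.773. Among 14 genes of nucleic acid sensing the counts were likewise 0 and 0, with 0.16 for the kinase Tbk1 and -0.39 for the adaptor Ticam1, at adjusted p of 0.781 and 0.805.

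Other antiviral effectors were the largest list, with 42 genes and a median log2 difference of 0.076. Of these, 27 were positive and 15 negative, and none passed in limma. Of their 59 probe sets, 4 higher and 1 lower reached an unadjusted p under 0.05, against 7.85% of all probe sets. The brighter probe set of Trim21, a cytosolic antibody receptor and ubiquitin ligase, gave 109, 159 and 139 in wild type and 185, 215 and 184 in transgenic pools. Its log2 difference was 0.49 at adjusted p 0.384, and the dimmer one gave 0.14, with the genotypes overlapping. Irgm2, an immunity-related GTPase, gave 114, 152 and 158 in wild type and 183, 430 and 183 in transgenic pools. Here transgenic replicate 2 stood far above the rest, and the log2 difference of 0.74 had an adjusted p of 0.525. The summed signal of the 42 genes was also highest in that pool. It was 12646, 13362 and 13123 in wild type and 12450.5, 16129 and 13612 in transgenic pools. In transgenic pools Iigp1 gave 446, 1579 and 430.5 and Igtp 452, 866 and 360, while Oasl1 was highest in replicate 3. The enzymes that attach Isg15 to proteins were not called. Herc6, the mouse ligase, gave -0.36 on its brightest probe set, at adjusted p 0.734 in limma, but 0.057, 0.11 and 0.20 on its others. Ube2l6, the conjugating enzyme, gave 0.28 at adjusted p 0.805. None of the 8 probe sets of these enzymes reached an unadjusted p under 0.05.

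Among the interferon-inducible nuclear proteins of the Ifi200 family, 6 genes were measured above the filter by 7 probe sets, and Mndal rose on both of its own. By the brightest probe set, 5 genes had positive differences and 1 a negative one. Of the 7 probe sets, 3 higher and 1 lower reached an unadjusted p under 0.05, against 7.85% of all. On 1452231_x_at Mndal gave 162, 93.3 and 147 in wild type and 304, 458 and 443 in transgenic pools. The log2 difference was 1.48 at adjusted p 0.0133 in limma. The second, 1426906_at, gave 57.5 ± 21.9 (SD, n = 3) and 208 ± 25.9 (SD, n = 3), a log2 difference of 1.65 at adjusted p 0.0133. In that order, the adjusted p of the pair was 0.0565 and 0.0496 without transgenic replicate 2, 0.0520 and 0.0523 when dim probe sets were kept, and 0.0761 and 0.0749 in hybridisation round 1 alone, and 0.378 for both without the intensity trend. The lower one was Ifi202b, named here after its values were seen, which gave 136, 162 and 132 in wild type and 60.6, 126 and 71.5 in transgenic pools. Every transgenic pool was below every wild type pool, and the log2 difference of -0.69 had an unadjusted p of 0.00683 and did not pass in limma, at adjusted p 0.400. The family has near-identical copies, so the signal may be shared between them.

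The family of Ly6 surface proteins, to which Ly6e belongs, had 4 other genes above the filter, and none passed in limma. Of their 5 probe sets, 3 had an unadjusted p under 0.05, 2 higher and 1 lower, against 7.85% of all. Ly6i gave 15.9, 22.3 and 18.1 in wild type and 52.4, 38.9 and 45.0 in transgenic pools. All transgenic pools were higher, and the log2 difference of 0.82 had an adjusted p of 0.347. The wild type mean of 18.8 lay below the filter's level of 21.7, so the probe set was kept only through its transgenic signal. Its separation and its place among the 3 are therefore not read as a result. Lynx1, a modulator of acetylcholine receptors, gave 1019 and 861, a log2 difference of -0.24 at adjusted p 0.460.

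**Figure D5:**
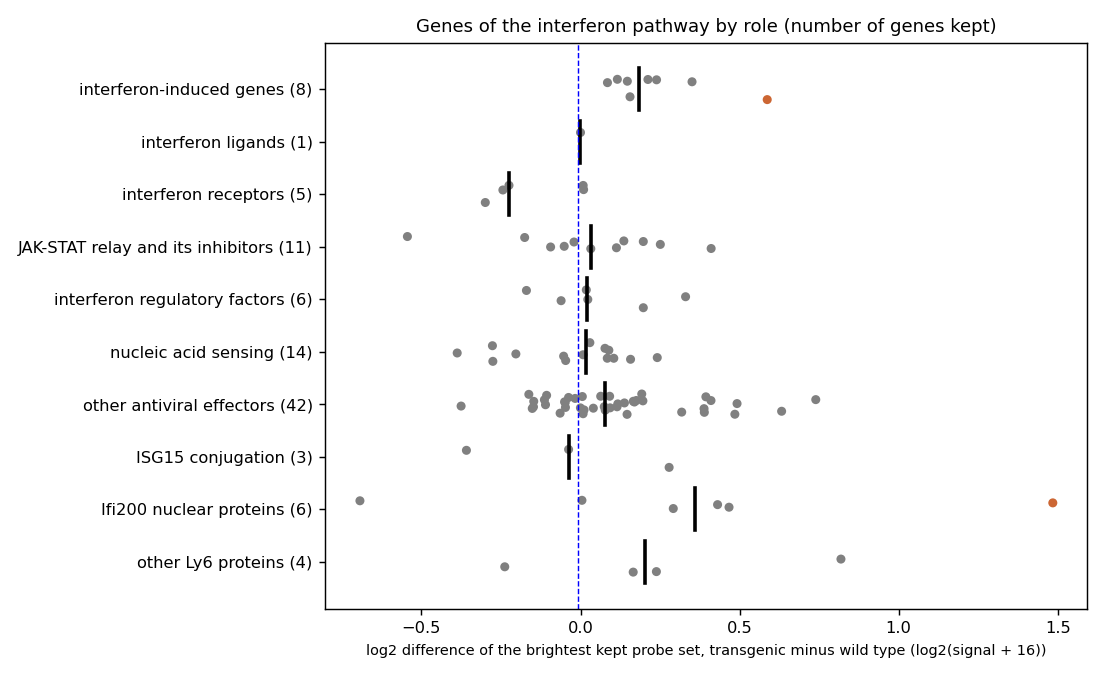
Log2 difference of the brightest probe set of each gene, transgenic minus wild type on the log2(signal + 16) scale, for the interferon-induced genes and 9 lists of pathway genes, with list medians as black bars, called genes in orange and the median over 12942 named genes as a dashed line. The 8 interferon-induced genes have a median of 0.18 and the 42 other antiviral effectors one of 0.076, while Mndal stands at 1.48 among the Ifi200 proteins.

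Markers of other cells in the tissue were set beside these values. In whole muscle, fewer cells of a type and less RNA per cell cannot be told apart. None of the marker genes passed in limma. The summed signal of 11 macrophage markers, all above the filter, was 6734 to 7195 in wild type and 6422 to 6979 in transgenic pools. That of 9 lymphocyte markers was 1035 to 1197 and 1135 to 1248, with Cd3e and Cd4 below the filter, and that of 8 neutrophil markers was 701 to 935 and 633 to 873. For these sums the genotypes overlapped. By the brightest probe set of each gene, 7 of the 9 lymphocyte markers had positive differences, against 47.9% of named genes. Positive differences were found for 3 of 11 macrophage and 2 of 8 neutrophil markers. The median log2 differences of lymphocyte, macrophage and neutrophil markers were 0.16, -0.068 and -0.13, where the 8 interferon-induced genes had 0.18. The T cell adhesion molecule Cd2 was higher in every transgenic pool, as were 6.44% of named genes. The sum of 7 plasmacytoid dendritic cell markers, with the defining Siglech below the filter, was 1232 to 1372 in wild type and 1098 to 1147 in transgenic pools. The sum of 10 endothelial markers was 2459 to 2714 and 2217 to 2382, and that of 12 fibre markers was 201697 to 204615 and 185282 to 194683. All 3 of these sums were lower in every transgenic pool than in any wild type pool. No share over sums of other genes was computed. Fibre markers such as Tnnt3 and Tnni2 lay at the top of the signal scale. The highest signal of an array was 23547 to 23952.5 in wild type and 21385.5 to 22469 in transgenic pools. The part of the scale's upper end in the fibre sum was not tested. The plasmacytoid genes did not all go one way, with 3 of 7 positive, Irf8, Ly6d and Ccr9, and a median log2 difference of -0.058. Bst2, Irf8 and Ly6d are also in the pathway lists above. The sum of 9 fibroblast markers, 36430 to 38637 and 32996 to 37222, overlapped. The part of these cells in the values of Ly6e and the other interferon-induced genes was not tested. Before adjustment, p was under 0.05 for 7.85% of all probe sets. Among the markers it was so for 7 of 22 fibre, 4 of 13 plasmacytoid dendritic cell, 3 of 18 endothelial, 3 of 17 fibroblast and 1 of 14 lymphocyte probe sets, all of them lower. Of 16 macrophage probe sets 2 were higher and 2 lower, and of 8 neutrophil ones none was either.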

How the data were processed

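Labelled RNA of 6 pools, 3 of each genotype, was hybridised to Mouse430_2 arrays. Each probe set's deposited intensity is linear and came from the software GCOS (1.1.1 in the submitters' processing notes), whose algorithm the sources used here do not give. The values show arrays with equal means of 150.0 after trimming both ends, which would hide a change common to most transcripts. After leaving out 64 control rows, log2(signal + 16) was modelled by genotype alone in limma (3.58.1, under R 4.3.3), with two-sided tests and variances that follow an intensity trend. The offset understates changes of dim transcripts. P-values measure the spread between pools. Probe sets above the 40th percentile of the mean were kept.

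Gene symbols came from the platform's annotation, updated by gene identifier to a RefSeq table of GRCm38.p6. Of 45037 probe sets, 34945 carried 1 symbol, 932 several and 9160 none.

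The genes and lists were chosen with earlier results of these data known. Named were all 13 probe sets of the group and, of each pathway list, every called gene or otherwise the 2 genes with the smallest p. Some others, among them Socs1, Iigp1, Igtp and Oasl1, were named after their values were seen. The brightest probe set of a gene is the one with the highest wild type mean. A pathway gene given with a single log2 difference is given on that probe set. The run information names no rounds. It gave a hybridisation time for each array, and a gap in these times was taken to separate 2 rounds, each with both genotypes. It also named 4 fluidics modules, each with a single genotype, so that module and genotype cannot be told apart. The fit was also run on simulated data with independent noise on each array. That simulation holds no round or module effect, so it cannot speak to either.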

Additional observations from a re-analysis of the deposited data

How the results depend on the processing

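The number of probe sets past the threshold was 33. It was 51 with equal array medians, 17 with no filter, 1 without the intensity trend, 297 with fluidics module as random block (estimated correlation -0.44) and 18 to 39 with each pool left out. Of the 13 interferon-induced probe sets, 1 passed, and 0 did with no filter, without the intensity trend and in hybridisation round 1 alone, where limma gave 2, 1 and 1 at an unadjusted p under 0.05. With each pool left out it was 0 to 1, with 1 to 4 at an unadjusted p under 0.05. Of the pathway probe sets 2 passed, and 0 did with no filter, without the intensity trend and in round 1 alone, each with 13 at an unadjusted p under 0.05, while leaving out each pool gave 1 to 2. Same-numbered pools were not taken as pairs, since the correlations of their deviations from the group means were 0.0030, 0.060 and 0.049, and transgenic replicate 1 did not correlate best with its own number. The replicate number as a block gave 36 calls in all, and the same counts of 1 and 2. The median over the 13 was 0.15, and 0.052 to 0.27 over the alternatives. Ly6e on 1453304_s_at was called in 12 of 19 tested alternatives. Signs changed for Ifi35 and Rsad2, none of them called. Ifi35 on 1424617_at gave -0.076 in round 1 alone and -0.060 to 0.055 with each pool left out. Ifi35 on 1459151_x_at gave -0.042 with array weights, -0.17 in round 1 alone and -0.16 to 0.17 with each pool left out. Rsad2 on 1421008_at gave 0.20 in round 2 alone. The cause was not tested. The number of arrays limits the precision.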
